A study of Homo sapiens with 6 samples.

Results

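Plakoglobin and 9 further genes of the desmosome and the junctional plaque were examined in H460 cells of high and low invasiveness. They are JUP (plakoglobin), DSP, PKP1, PKP2, PKP3, PKP4, DSC2, DSC3, DSG2 and CTNND1, which make up 10 of the 20045 genes that the platform's annotation names, and 24 probes of the array were assigned to them. A desmosome joins neighbouring epithelial cells: desmogleins and desmocollins, which are cadherins, meet between the cells, and plakoglobin and the plakophilins tie their tails to desmoplakin, which holds the keratin filaments. Plakoglobin is a close relative of beta-catenin and can also take its place at the adherens junction, where p120-catenin steadies the classical cadherins. Loss of these contacts is a familiar feature of cells that leave an epithelial sheet.

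The H460 line derives from a human large cell lung cancer. L-INV cells are those that stayed above a porous membrane coated with basement membrane extract, and H-INV cells are those that crossed it within 48 hours, over 6 rounds of selection per the labels; the supplementary methods give a longer passage and fewer rounds, followed by thawing and 1 more selection. Per the same methods both subpopulations were kept in glucose-free RPMI-1640, and they are pools from 1 line and not clones. The labels name no treatment beyond the selection. RNA from 3 sets of each was hybridised to Illumina HT-12 v4 BeadChips, 1 array per set, and the sources do not say whether each set was selected separately, so the spread behind each p-value is that between sets and may be technical.

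All 6 arrays lay on 1 chip with the L-INV arrays first, so position on it and subpopulation cannot be told apart. A probe counted as above background at a detection p under 0.01 against the negative controls of its array, which 16368 to 16985 probes per array reached. Of the simple epithelial markers, KRT8, KRT18 and KRT19 were above background on all arrays, EPCAM on the L-INV arrays only, and E-cadherin (CDH1) and CLDN4 on none. The summed intensity of the 6 simple epithelial markers was 8004 to 9387 on L-INV arrays and 2394 to 2509 on H-INV arrays, and its part in the results was not tested. Of these markers, KRT19 had a log2 ratio of H-INV to L-INV of -4.12, KRT8 of -0.30 and KRT18 of -0.27. The sum thus does not show that the markers fell alike. The 3 squamous markers with a probe and all 4 endothelial markers were above background on no array. Of 5 leukocyte markers, CD14 and HLA-DRA were above it on all 6 arrays and PTPRC and CD3E on none, and of 6 fibroblast markers COL3A1 was above it throughout and COL1A2, DCN and LUM on none. The summed intensity was 1291 to 1461 (L-INV) and 1803 to 2271 (H-INV) for the fibroblast markers, and 820 to 886 and 686 to 733 for the leukocyte markers, and their part was not tested either. In such bulk RNA, fewer cells expressing a gene and less RNA per cell cannot be told apart.

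RefSeq windows around start sites of JUP, DSC2 and DSG2, which fell, are shown beside that of DSP, which rose, because SNAI2, a repressor that binds E-boxes of the form CAGGTG, was among the genes that rose. ZEB2, another E-box repressor, was lower in H-INV cells and above background on the L-INV arrays only. Each window runs from 250 bases before to 50 bases after an annotated start, 5′ to 3′ on the gene's strand in GRCh38.p14, and capitals mark CAGGTG or its reverse complement CACCTG. JUP has 2 such windows, at chr17:41786662-41786961 and chr17:41785927-41786226 on the minus strand, DSC2 has 2, of which the first at chr18:31102372-31102671 on the minus strand is shown, DSG2 has 1 at chr18:31497927-31498226 on the plus strand and DSP has 1 at chr6:7541421-7541720 on the plus strand.
JUP start 1: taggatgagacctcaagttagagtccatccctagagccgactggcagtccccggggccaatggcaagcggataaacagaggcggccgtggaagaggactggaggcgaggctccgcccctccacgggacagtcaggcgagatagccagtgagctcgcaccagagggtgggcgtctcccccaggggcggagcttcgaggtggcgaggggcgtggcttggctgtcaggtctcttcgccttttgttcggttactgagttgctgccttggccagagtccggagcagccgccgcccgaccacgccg
JUP start 2: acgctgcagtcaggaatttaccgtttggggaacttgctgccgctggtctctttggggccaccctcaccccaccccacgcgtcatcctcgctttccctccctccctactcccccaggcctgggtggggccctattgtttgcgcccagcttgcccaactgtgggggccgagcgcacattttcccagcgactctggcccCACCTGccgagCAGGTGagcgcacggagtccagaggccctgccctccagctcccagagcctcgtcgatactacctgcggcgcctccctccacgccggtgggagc
DSC2 start 1: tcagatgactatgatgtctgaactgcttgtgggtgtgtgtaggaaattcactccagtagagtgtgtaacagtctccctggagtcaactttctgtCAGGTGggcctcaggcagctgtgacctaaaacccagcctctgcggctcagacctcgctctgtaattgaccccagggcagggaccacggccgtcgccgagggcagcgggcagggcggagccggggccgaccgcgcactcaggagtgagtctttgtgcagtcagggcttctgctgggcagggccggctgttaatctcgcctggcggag
DSG2 start 1: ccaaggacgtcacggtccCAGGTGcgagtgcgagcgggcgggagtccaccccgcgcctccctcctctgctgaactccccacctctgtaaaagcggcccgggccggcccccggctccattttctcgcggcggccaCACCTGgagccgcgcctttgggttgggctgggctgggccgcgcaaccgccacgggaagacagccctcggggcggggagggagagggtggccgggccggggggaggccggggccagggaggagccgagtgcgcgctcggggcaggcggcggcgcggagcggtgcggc
DSP start 1: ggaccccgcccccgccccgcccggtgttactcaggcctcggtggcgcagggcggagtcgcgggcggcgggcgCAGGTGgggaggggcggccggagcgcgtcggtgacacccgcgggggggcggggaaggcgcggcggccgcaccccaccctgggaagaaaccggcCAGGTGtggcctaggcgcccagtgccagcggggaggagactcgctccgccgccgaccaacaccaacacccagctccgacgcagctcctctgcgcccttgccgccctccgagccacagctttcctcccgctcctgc

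In the second JUP window the E-boxes begin at positions -54 and -43 from the start site and lie 5 bases apart on opposite strands, while the first JUP window holds none. DSC2 has 1 at -156, DSG2 has 2 at -232 and -116, and DSP has 2 at -178 and -85. The DSC2 window that is not shown, both windows of PKP4, which also rose, and the windows of PKP1 and DSC3 hold none. PKP2, PKP3 and CTNND1 were not matched. Of 10 windows found for 7 of the 10 members, 4 hold CAGGTG on either strand, against 20.6% of 35116 windows of all genes. These 4 belong to members that fell and to DSP alike. The Grainyhead palindrome AACCGGTT, tied to epithelial genes, occurs in none of the 10 windows and in 0.134% of all windows. The GC box GGGCGG occurs in 8 of the 10 and in 45% of all windows. All 10 windows were richer in G and C (60.7% to 77%) than the median of all windows (58.7%). The shares of motifs were not adjusted for this. A match is only a run of letters, and no factor's binding was measured.

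JUP mRNA was close to background in H-INV cells and bright in L-INV cells. The brightest of its 3 probes (ILMN_1733811) read 2583, 2115 and 2136 in the 3 L-INV sets against 147, 147 and 153 in the 3 H-INV sets (scanner intensity before background correction). Every L-INV array was far above every H-INV array, and the 3 H-INV arrays still passed the detection limit. After background correction with an offset of 16, quantile normalization and log2, its level was 11.04 ± 0.0771 in L-INV cells and 5.68 ± 0.0686 in H-INV cells (SD, n = 3 arrays each). Its log2 ratio of H-INV to L-INV was -5.36 (standard error, SE, 0.07, limma, adjusted p = 6.28e-10), or 41.2-fold lower, which ranked 10 among the falls of the 10279 genes tested.

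The other probes of JUP were dimmer, well above background in L-INV cells and at background in H-INV cells. ILMN_1741970 read 285, 276 and 240 on L-INV arrays and 123, 129 and 127 on H-INV arrays, and ILMN_2366864 read 268, 235 and 220 against 111, 122 and 119. Neither was above background on any H-INV array and both were above it on all 3 L-INV arrays, with no overlap between the subpopulations. Both therefore give a bound: the L-INV mean is set against the detection floor of each H-INV array (its dimmest probe above background), or against the probe itself where that was brighter. By ILMN_1741970 JUP was at least 3.64-fold lower (limma over 16941 probes, adjusted p = 2.07e-07). By ILMN_2366864 it was at least 3.05-fold lower (adjusted p = 1.53e-07). Both entered the test only through the L-INV arrays and so had to differ, and their p-values add no support to that of the brightest probe. Bounds here and below hold for intensities corrected with the offset of 16. The brightest probe and ILMN_1741970 are annotated to NM_002230, and ILMN_2366864 to NM_021991, another transcript record of JUP. The change of the brightest probe minus that of ILMN_1741970 was -2.91 (log2), and minus that of ILMN_2366864 -2.88, each with complete separation of the arrays (exact two-sided permutation test, p = 0.10, the smallest that 3 against 3 arrays allow, and 0.20 after Benjamini-Hochberg adjustment over 6 pairs compared). Since the dimmer probes had reached background in H-INV cells, this gap does not give a difference between transcripts.

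**Figure D1:**
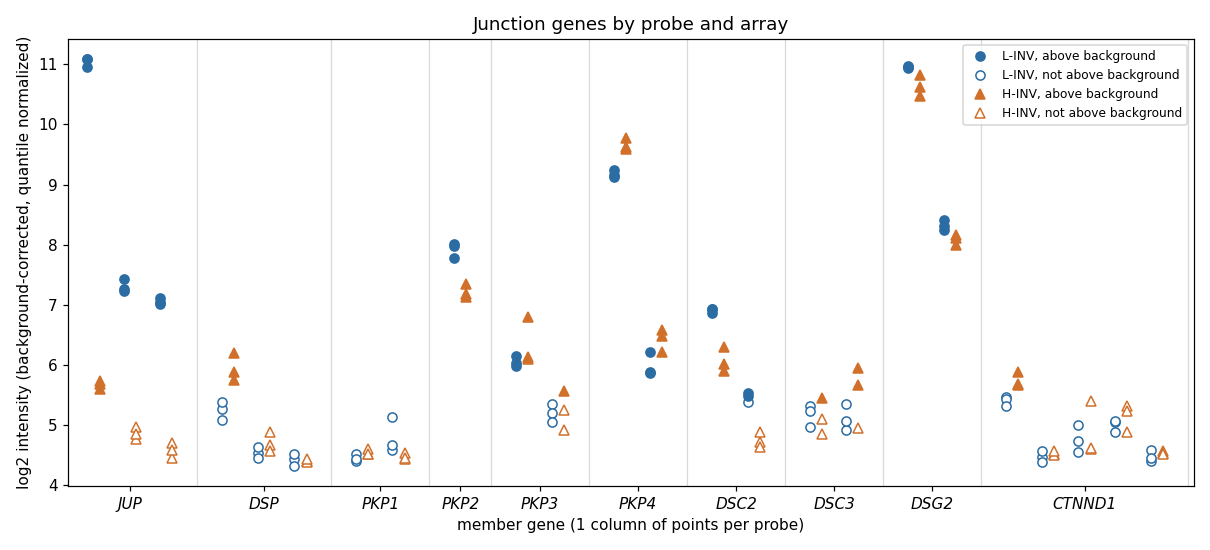
Log2 intensity (y axis, background-corrected and quantile normalized) of all 24 probes of the 10 genes on the 3 L-INV arrays (circles) and 3 H-INV arrays (triangles); filled symbols are above background and each column of points is 1 probe. The brightest JUP probe lies near 11.04 in L-INV cells and 5.68 in H-INV cells, while both PKP1 probes are open on every array.

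The size of the JUP change depended on how intensity near background was treated, and its direction did not in any treatment tried. Its log2 ratio was -4.82 in the authors' own background-corrected table, -4.65 with an offset of 50 and -3.86 without background correction. With the mean of its 3 probes it was -3.43. Leaving out each array in turn gave -5.41 to -5.32. Log2 ratios of the dimmer probes, ILMN_1741970 and ILMN_2366864, were -1.83 and -1.91 in the authors' table. At an offset of 50 they were -1.61 and -1.53, and without background correction -1.02 and -0.98. All of these but the -1.91 of ILMN_2366864 fell short of the bounds given above.

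**Figure D2:**
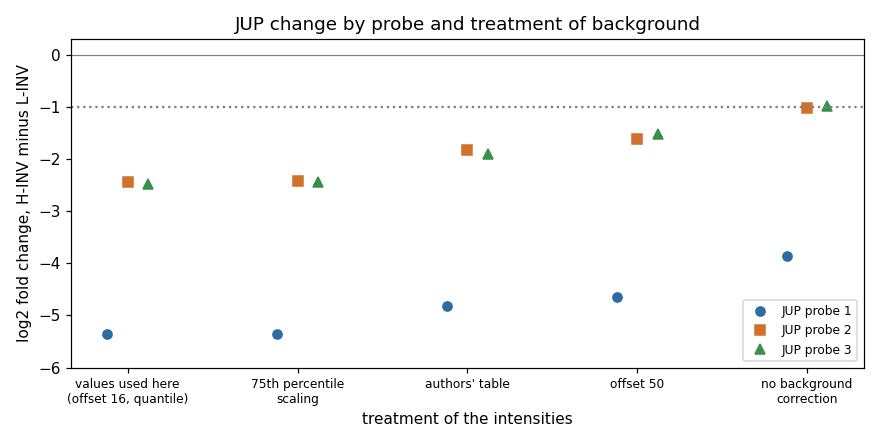
Log2 ratio (y axis, H-INV minus L-INV) of each JUP probe under 5 treatments of the intensities (x axis); the dotted line marks a 2-fold fall. The brightest probe moves from -5.36 with the values used here to -3.86 without background correction, and all 3 probes stay below 0.

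Among the desmosomal cadherins, DSC2 and DSG2 were measured in both subpopulations and were lower in H-INV cells, each by less than 2-fold. DSC2, desmocollin 2, read 249, 226 and 209 on L-INV arrays and 171, 157 and 165 on H-INV arrays. Its arrays did not overlap, and its log2 level was 6.92 ± 0.0411 in L-INV cells and 6.07 ± 0.209 in H-INV cells (SD, n = 3 arrays each). Its log2 ratio was -0.84 (SE 0.10, adjusted p = 1.72e-04, by limma). A second DSC2 probe passed the detection limit on 2 L-INV arrays but in none of the H-INV sets and was not tested. It read 153, 148 and 142 against 126, 123 and 121, again with no overlap.

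DSG2 encodes desmoglein 2, the desmoglein of simple epithelia. It read 2372, 2101 and 1993 on L-INV arrays and 1394, 1625 and 1937 on H-INV arrays, so that the highest H-INV array came close to the lowest L-INV array. The log2 ratio was -0.31 (SE 0.09, adjusted p = 0.0184, by limma). The call was lost with the variance test of the study's methods (adjusted p = 0.0691), without H-INV replicate 1 (0.0552) and without H-INV replicate 2 (0.0504). Its second probe had a log2 ratio of -0.24 (adjusted p = 0.0384 over all probes, by limma). That call was lost with the methods' test (0.0642), with the replicate number as a block (0.0859), with no detection filter (0.110), and without L-INV replicate 2 (0.12), L-INV replicate 3 (0.0684), H-INV replicate 2 (0.132) or H-INV replicate 3 (0.0696).

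DSC3, desmocollin 3, which is typical of stratified epithelium, was not among the genes tested. Its 2 probes were above background on no L-INV array, and on 1 and 2 of the 3 H-INV arrays. The brighter read 138, 134 and 138 on L-INV arrays and 146, 129 and 162 on H-INV arrays, which overlap. DSC2, DSC3 and DSG2 belong to a run of 7 desmosomal cadherin genes on chromosome 18 with no other protein-coding gene among them in RefSeq's order. Only DSC2 and DSG2 of the 7 passed the detection filter. Probes of DSC1, DSG1, DSG3 and DSG4, the cadherins of epidermis and hair, did not.

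DSP, the gene of desmoplakin, was dim in both subpopulations. The brightest of its 3 probes read 150, 144 and 131 on L-INV arrays, none above background, and 149, 170 and 159 on H-INV arrays, all above it. The scanner readings of the subpopulations overlap, and the normalized log2 levels, 5.08 to 5.39 and 5.76 to 6.21, do not. By this probe DSP was higher in H-INV cells by a factor of at least 1.40 (fitted log2 ratio 0.70, standard error 0.13, adjusted p = 0.00157, by limma). Its other probes were above background on no array, so the call rests on 1 of 3 probes, and this probe entered the test only through the H-INV arrays. The log2 ratio was 0.47 in the authors' table, 0.41 at an offset of 50 and 0.23 without background correction, each under the bound.

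The plakophilins, armadillo proteins that bind desmoplakin and the cadherin tails, did not move together. PKP2, the plakophilin of simple epithelia and heart, read 400, 322 and 340 on L-INV arrays and 229, 239 and 264 on H-INV arrays. No H-INV array reached an L-INV array, and the log2 ratio was -0.70 (SE 0.09, adjusted p = 2.00e-04, by limma). PKP4, also called p0071, which occurs at desmosomes and adherens junctions, read 760, 664 and 666 on L-INV arrays and 906, 854 and 905 on H-INV arrays. Its arrays separated in the opposite direction, with a log2 ratio of 0.49 (SE 0.08, adjusted p = 6.14e-04, by limma). A second, dimmer PKP4 probe had a log2 ratio of 0.44 (adjusted p = 0.0197 over all probes, by limma), and the change of the brighter probe exceeded it by 0.05 (exact two-sided permutation test, p = 0.70). That difference was 0.14 in the authors' table, 0.17 at an offset of 50 and 0.24 without background correction. The call of the dimmer probe was lost with the methods' test (adjusted p = 0.0922), with no detection filter (0.0618) and without L-INV replicate 1 (0.0640), L-INV replicate 2 (0.0623), H-INV replicate 1 (0.0637) or H-INV replicate 3 (0.0592).

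PKP3 did not pass the test. Its brighter probe read 182, 166 and 166 on L-INV arrays and 162, 207 and 170 on H-INV arrays, and 1 H-INV array stood above the other 5. The log2 ratio was 0.29 (SE 0.17, adjusted p = 0.193, by limma) and 0.06 without H-INV replicate 2. PKP1, a plakophilin of stratified epithelium, was above background on no array with either probe.

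CTNND1, the gene of p120-catenin, has 5 probes, of which 4 were above background on no array. The remaining probe read 157, 145 and 137 on L-INV arrays, none above background, and 147, 156 and 151 on H-INV arrays, all above it. Raw readings overlap, normalized log2 levels do not (5.33 to 5.48 against 5.68 to 5.89). By that probe CTNND1 was higher in H-INV cells by a factor of at least 1.22 (fitted log2 ratio 0.34, standard error 0.08, adjusted p = 0.00710, by limma). The probe entered the test only through the H-INV arrays and so had to differ, and its p-value adds no support. The log2 ratio was 0.23 in the authors' table and 0.20 at an offset of 50, each under the bound. The call was lost without background correction (log2 ratio 0.11, adjusted p = 0.0925) and with an intensity trend in the prior (adjusted p = 0.0626).

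**Figure D3:**
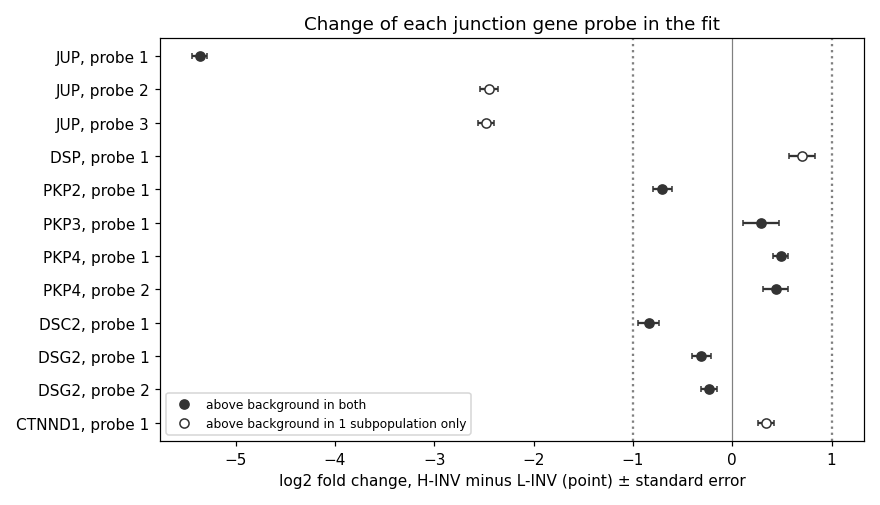
Log2 ratio (x axis, H-INV minus L-INV, with standard error) of the 12 probes of these genes that passed the detection filter; open points are above background in 1 subpopulation only and dotted lines mark a 2-fold change. JUP at -5.36 stands apart, and DSC2, PKP2, PKP4 and DSG2 lie within 2-fold.

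Counted over the 10 genes, 8 had a probe that passed the detection filter and 2, PKP1 and DSC3, had none. JUP alone was past 2-fold with an adjusted p under 0.05, where 10.2% of all 10279 genes were, 6.02% being lower and 4.22% higher. At the adjusted p alone, JUP, DSC2, PKP2 and DSG2 were lower, DSP, PKP4 and CTNND1 were higher and PKP3 was not called, where 58.0% of all genes passed, 25.4% being lower and 32.6% higher. DSP and CTNND1 passed the filter through H-INV arrays only and so had to differ, and the counts are given as a description. Of the 12 probes in the test, the 3 of JUP passed both thresholds (9.12% of all 16941 probes did), and 11 passed the adjusted p (52.8% of all probes did). The 2 dimmer JUP probes passed the filter through L-INV arrays only, as said, and ILMN_2366864 was under 2-fold without background correction (-0.98). Arrays of the subpopulations did not overlap in these 7 genes, as in 64.5% of all genes tested.

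JUP lies next to the type I keratin genes on chromosome 17. Of the 20 nearest protein-coding genes, 10 on each side in RefSeq order, 8 were measured, and KRT19 was the only keratin among those 8. Of these, 7 were lower at the adjusted p (by limma) and 1, DNAJC7, was higher, where 25.4% of all genes were lower and 32.6% higher, with a median log2 ratio of -0.41, where the median of all genes was 0.05. KRT19, a keratin of simple epithelium and the 8th gene on one side, was the neighbour that changed more than 2-fold, with a log2 ratio of -4.12 (adjusted p = 6.66e-10). FKBP10, a collagen chaperone and 2 genes away on the other side, had a log2 ratio of -0.90 (adjusted p = 2.73e-05), and P3H4, the gene next to JUP on that side, of -0.38 (adjusted p = 0.00572). The neighbours thus ranged from -4.12 to 0.39 around a change of -5.36 in JUP. Position was examined after the change of JUP and KRT19 was known. Neighbours of the other 9 genes went both ways. Of 11 measured for PKP2, 5 were lower and 2 higher, of 11 for PKP3, 1 was lower and 6 were higher, and of 13 for DSP, 4 were lower and 2 higher. DSC2, DSC3 and DSG2 share neighbours, and 2 of 5, 3 of 6 and 2 of 5 measured were lower and 0 higher. For PKP1, 3 of 10 were lower and 0 higher, and for PKP4, 2 of 7 were lower and 2 higher. For CTNND1, 0 of 5 were lower and 2 higher.

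**Figure D4:**
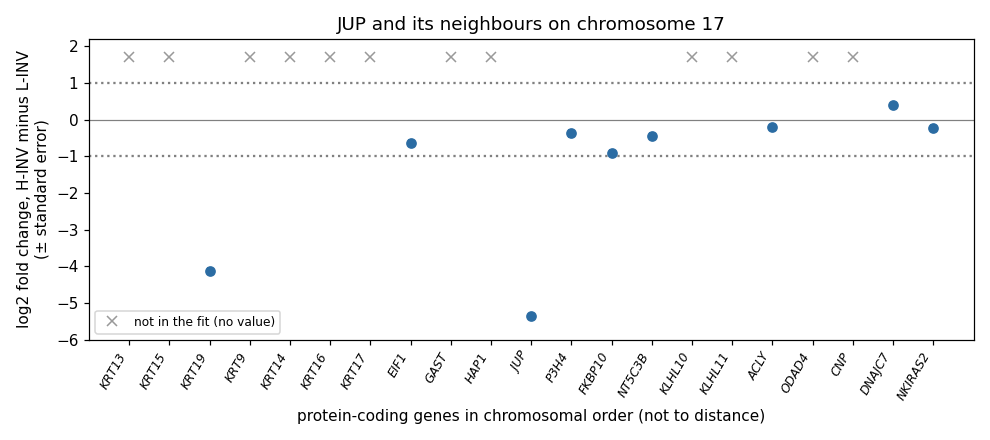
Log2 ratio (y axis, H-INV minus L-INV, with standard error) of JUP and the 10 protein-coding genes on either side of it in chromosomal order (x axis, not to distance); crosses mark genes without a value and dotted lines a 2-fold change. Apart from JUP, KRT19 at -4.12 lies beyond the 2-fold line.

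The genes whose pattern over the 6 arrays was nearest to that of JUP, among 9065 above background on all 6, were TSPAN8 (Euclidean distance of centred log2 levels 0.58), TFPI (0.69), LAMA1 (1.03), CD24 (1.05) and ADAM19 (1.05). They encode a tetraspanin, an inhibitor of tissue factor, a laminin chain, a surface glycoprotein and a metalloprotease. Log2 ratios of these 5 genes ran from -5.05 for TSPAN8 to -4.52 for CD24, so the nearest patterns are other falls of like size.

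Beta-catenin, the closest relative of plakoglobin, moved the other way. CTNNB1 had a log2 ratio of 0.49 by its brightest probe (adjusted p = 8.06e-04, by limma) and 0.61 by the other probe in the test, of 7 in all. The change of JUP minus that of CTNNB1 was -5.85 (log2), with complete separation of the arrays (exact two-sided permutation test, p = 0.10, the smallest possible, and 0.20 after adjustment over the 6 pairs). The fall of JUP by itself gives that separation, so the test adds nothing about CTNNB1. Of 8 measured catenins and adherens junction partners, 5 were higher, 1 was lower and 2 were not called at the adjusted p, with a median log2 ratio of 0.55. Over all genes tested 32.6% were higher and 25.4% lower at that threshold, which is the background for each list count that follows. NECTIN3, an adhesion molecule of the immunoglobulin family, rose by a log2 ratio of 2.28 (2.58 by its other probe). CTNND2, the neuronal relative of p120-catenin, was above background on the 3 H-INV arrays only and at least 1.92-fold higher, with a log2 ratio of 1.94 that was 0.71 without background correction, under the bound. CTNND2 passed the filter through those arrays only and so had to differ, and it is 1 of the 5 counted as higher. The alpha-catenin CTNNA1 rose by 0.60, and CTNNAL1, a relative of it, fell by 1.42 on the log2 scale. VCL, the gene of vinculin, had a log2 ratio of 0.10 (adjusted p = 0.266).

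Of 11 other desmosomal cadherins and envelope partners, 4 were measured. PERP, a tetraspan protein of desmosomes, had a log2 ratio of -1.86 (adjusted p = 1.61e-06, by limma), and envoplakin (EVPL), a plakin of the cornified envelope, had a log2 ratio of -0.40 (adjusted p = 0.00352). KAZN, the gene of kazrin, which binds periplakin, rose by 0.82 (adjusted p = 3.20e-05), and PNN, the gene of pinin, by 0.43 (adjusted p = 0.00174). The list median was 0.01. Of 4 measured keratins that desmosomes anchor, KRT19 and KRT8 (-0.30) were lower, KRT7 (1.09) was higher and KRT18 (-0.27, adjusted p = 0.0624) was not called.

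Of 7 measured regulators of desmosome genes or turnover, 2 were higher, 3 were lower and 2 were not called. In this count GRHL3, higher, and ZEB2, lower, each passed the filter through 1 subpopulation only and so had to differ. SNAI2 rose by a log2 ratio of 3.51 (2.67 by its other probe). GRHL3, a Grainyhead-like factor of epidermis, was above background on the 3 H-INV arrays only and at least 1.88-fold higher, with a bound of 1.29-fold for another of its probes. Its log2 ratio of 1.91 was 1.06 at an offset of 50, 0.74 in the authors' table and 0.71 without background correction, and under the bound in the latter pair. ZEB2, an E-box repressor of epithelial genes, passed the detection limit in the 3 L-INV sets only and was lower in H-INV cells by a factor of at least 1.23. EGFR, a receptor whose signalling loosens desmosomes, had a log2 ratio of -2.33 (-1.11 by its other probe), and PRKCA, the gene of protein kinase C alpha, which tunes desmosomal adhesion, had a log2 ratio of -0.84. ADAM10 and ADAM17, sheddases that cut cadherins, had log2 ratios of -0.07 (adjusted p = 0.524) and -0.09 (adjusted p = 0.414).

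Of 5 measured gap junction and intercalated disc partners, 1 was higher, 2 were lower and 2 were not called. GJA1, the gene of connexin 43, had a log2 ratio of -2.07 (adjusted p = 5.73e-07, by limma), and ANK3, the gene of ankyrin G, had a log2 ratio of -1.14 (-1.09 by its other probe). TMEM43 had a log2 ratio of 0.49 (adjusted p = 5.04e-04), and TJP1, the gene of the scaffold ZO-1, of 0.04 (adjusted p = 0.664). Over all 5 lists, 28 genes were measured, of which 5 were higher and 7 lower past both thresholds, where 4.22% of all genes were higher and 6.02% lower. CTNND2, GRHL3 and ZEB2, 3 of these 12, passed the filter through 1 subpopulation only and so had to differ. Among genes above background on all 6 arrays, 9 of 24 were called, where 639 of all 9067 were. Without background correction 7 of the 28 were called, where 467 of all 10279 genes were. In that setting CTNND2 (log2 ratio 0.71), GRHL3 (0.71), ZEB2 (-0.42), KRT7 (0.52) and ANK3 (-0.67) were under 2-fold. The median of the 28 was -0.04, beside 0.05 for all genes tested.

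**Figure D5:**
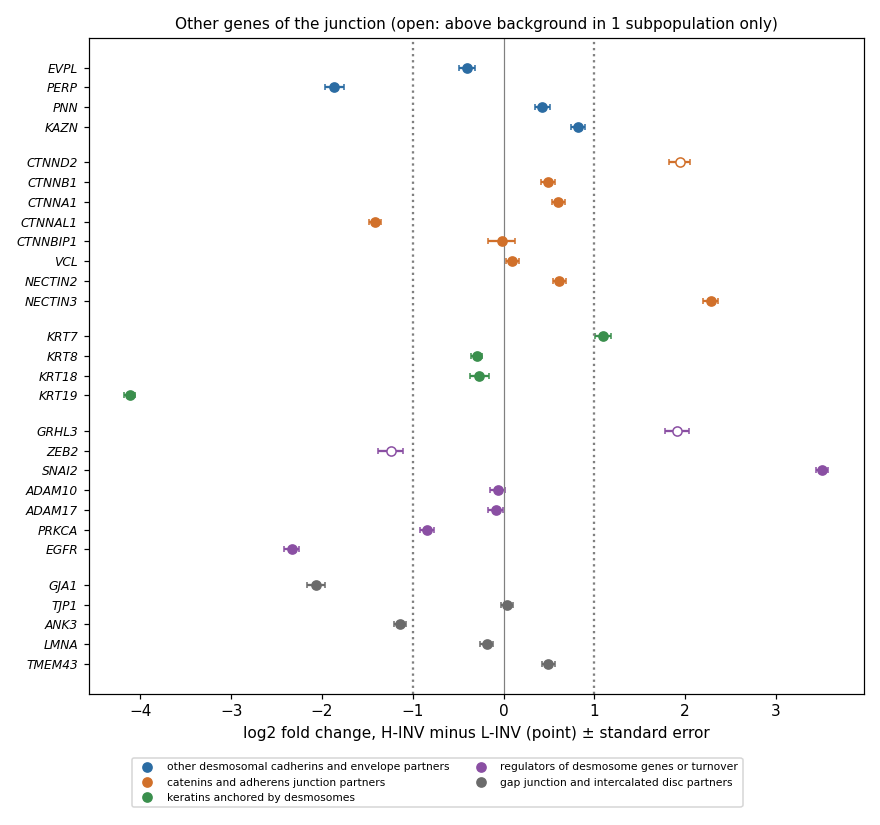
Log2 ratio (x axis, H-INV minus L-INV, with standard error) of 28 other genes of the junction in 5 lists; dotted lines mark a 2-fold change and open points are above background in 1 subpopulation only. KRT19, EGFR, GJA1 and PERP lie on the lower side and SNAI2 and NECTIN3 on the higher side.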

How the data were processed

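RNA of 3 L-INV and 3 H-INV sets of cells was hybridised to HT-12 v4 arrays, which the authors read out in GenomeStudio and analysed in Partek. The deposited scanner table holds linear intensity of 47322 probes, not normalized, with a deposited detection p-value for each. The authors' second table (47320 probes) is background-corrected and quantile normalized, on a linear scale with values down to -24.0, and 40 was added before log2. Which genome build the probe annotation followed was not stated there.

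For the present values, limma 3.58.1 (R 4.3.3) removed background (normexp, control levels inferred from detection p, offset 16), then quantile normalization and log2. The filter kept 16941 probes whose detection p was under 0.01 on 3 or more of the 6 arrays. Of all probes, 30111 have 1 symbol and 8 several. For 30072 of the 30111 the Entrez ID matched the GRCh38.p14 gene table. The brightest probe stood for each of 10279 genes. lmFit and eBayes compared H-INV with L-INV, two-sided, with Benjamini-Hochberg adjustment over all genes, or over all probes where a second probe is given. Called genes were past 2-fold with an adjusted p under 0.05, as in the methods. Simulated data with known changes were used to check the fits. The number of arrays limits the precision (median standard error 0.0824).

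The members and lists were chosen with earlier results of these data known. Named are all 10 members with every probe, listed genes past both thresholds, CTNNB1, and the 5 patterns nearest to JUP; other genes were named after their values were seen. Promoter windows come from RefSeq (GRCh38.p14). Listed genes without a probe were not used here. Other settings tried were the authors' table, other background and scaling, other filters and probe rules, the one-way ANOVA of the methods (adjusted the same way), a trend, a replicate block, other thresholds and each array left out.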

Additional observations from a re-analysis of the deposited data

Results flagged for a closer look

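Of the probes of these genes outside the test, 3 had signal above background on H-INV arrays and on no L-INV array. Only probes above background on more H-INV than L-INV arrays were flagged, so the rule set this direction. The second DSC2 probe went the other way, with 2 L-INV arrays and no H-INV array above background. A DSC3 probe (ILMN_2359159) passed the detection limit on 2 H-INV arrays, reading up to 161.6, where the highest L-INV array read 138. Another DSC3 probe (ILMN_1765363) passed on 1 H-INV array at 142.1, where an L-INV array read 141.8. The second PKP3 probe (ILMN_1796141) passed on 1 H-INV array at 143.3, below the 151.9 of an L-INV array. None was compared between the subpopulations, and detection limits differ between arrays.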

How the results depend on the processing

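JUP kept its direction and call under every alternative tried, and so did DSC2, PKP2 and PKP4 (brightest probes). Their sizes did depend on the treatment of background. Without background correction the log2 ratio was -0.40 for DSC2 (from -0.84), -0.46 for PKP2 (from -0.70) and 0.43 for PKP4 (from 0.49). The genes past both thresholds (1053) numbered 467 on intensities left uncorrected, 691 at an offset of 50, 639 with genes above background on all 6 arrays and 5958 with no fold threshold. The probes past both thresholds (1545) numbered 639, 972, 890 and 8947 in the same order. The other genes of the junction (12) numbered 7 without background correction and 21 with no fold threshold, and the member genes (1) numbered 7 with no fold threshold. At the adjusted p, 7 member genes were called, and 4 to 7 with each array left out. The lower end came without H-INV replicate 1 or H-INV replicate 2, where DSG2 lost its call, and 5 were called without H-INV replicate 3. In each of these 3 settings DSP and CTNND1 no longer passed the filter of 3 arrays, so 6 members were tested. The difference in change between the 2 dimmer JUP probes (0.03), both at background in H-INV cells and so not informative, was -0.0394 on uncorrected intensities, -0.0834 at the larger offset and -0.0307 to 0.0950 with each array left out. Those between the PKP4 probes (0.05) and the DSG2 probes (-0.08) ran from -0.0259 to 0.106 and from -0.160 to 0.0463 in the same way. The replicate number did not pair the arrays (correlations of same-numbered deviations -0.09 to -0.02). With it as a block, 1053 genes, 1543 probes and 1 member passed both thresholds and 7 members passed the adjusted p. The dimmer DSG2 probe lost its call under the block (adjusted p = 0.0859), and no other member probe in the test did. Values near background, as for DSP, CTNND1 and DSC3, are limited by the signal over background.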
